A study of Mus musculus with 7 samples.

Results

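Interferon sensing in skeletal muscle was followed through 10 genes, the interferon regulatory factors Irf1, Irf2, Irf3, Irf7, Irf8 and Irf9 and the receptor subunits Ifnar1, Ifnar2, Ifngr1 and Ifngr2. They were taken by gene symbol from a deposited table of 53819 genes, and all 10 were among the 14935 genes that passed the filter on low counts and were tested. RNA came from the quadriceps of male wild-type C57BL/6J mice that were 8 weeks old at a 200 µl tail vein injection and were killed 54 days later. The AAV8-IGFBP1 group (3 libraries) received AAV8-Alb-IGFBP1 and the AAV8-Null group (4 libraries) received AAV8-Alb-Null, so that both groups carried an adeno-associated virus vector of serotype 8, which favours the liver, with the promoter name of albumin, a liver gene. Muscle was thus not the tissue at which the vector was aimed. The labels do not say that each library is a separate mouse, so p-values measure only how far these samples spread, and that spread may be technical.

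Interferons are secreted antiviral and immune signals. Type I interferons bind the receptor of Ifnar1 and Ifnar2, whose kinases Jak1 and Tyk2 activate Stat2, which joins Irf9 in a complex that binds interferon-stimulated response elements. Interferon gamma binds Ifngr1, Ifngr2 recruits Jak2, and genes with gamma-activated sites, Irf1 among them, are then switched on. Irf3 and Irf7 are activated below sensors of foreign nucleic acid and switch on type I interferon genes; Irf7 is itself an interferon-stimulated gene. Irf2 competes with Irf1 for DNA, and Irf8 is best known from myeloid and B cells.

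Library totals were 38947493 to 51210391 counts, and 3 counts, the limit that a count of 0 allows, equalled 0.0580 to 0.0785 CPM, the counts scaled to a common library total. Igfbp1, the transgene's namesake, had 202, 1425 and 142 counts in the AAV8-IGFBP1 libraries, against 0, 0, 0 and 8 in the AAV8-Null libraries, and its edgeR adjusted p was 0.138. Markers of skeletal muscle fibres summed to 186370 to 206120 CPM in AAV8-IGFBP1 quadriceps and 170950 to 195810 CPM in AAV8-Null quadriceps, matching the labelled tissue. AAV8-IGFBP1 replicate 2 stood apart, with a score of 45.2 on the first principal component of log2 CPM, which held 27.2% of the variance. The other libraries of its group scored 12.6 and 8.24, and AAV8-Null libraries -25.7 to -11.9. The ribosomal RNA gene Rn18s, a sign of RNA and library quality, took 1.09, 2.29 and 1.52% of counts in AAV8-IGFBP1, against 0.593, 0.653, 1.32 and 0.797% in AAV8-Null, and was highest in that same library; its part in the results was not tested. Values without that library are given below for several results. A log2 fold change that stands alone rests on all 7 libraries.

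Of the 10 genes, Irf7 and Ifngr2 rose in AAV8-IGFBP1 quadriceps and 0 fell (edgeR quasi-likelihood test, Benjamini-Hochberg adjusted p under 0.05 over all 14935 genes). Among all genes tested, 0.362% rose and 0.194% fell by that test. These were also the 2 of the 10 genes with an unadjusted p under 0.05, which 12.6% of all genes tested had. DESeq2 called the same 2 higher and 0 lower, against 1.43% higher and 1.54% lower among all genes it adjusted. In both genes every AAV8-IGFBP1 library lay above every AAV8-Null library, which held for 6.33% of all genes tested. The reverse arrangement was seen in 0 of the 10 genes and in 6.01% of all genes tested.

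Irf7, the inducible switch for type I interferon genes, had 7.49, 8.10 and 8.63 CPM in the 3 AAV8-IGFBP1 libraries, against 2.07, 2.24, 2.85 and 1.95 CPM in the 4 AAV8-Null libraries. These rest on 345, 335 and 390 counts in AAV8-IGFBP1 and 104, 116, 109 and 80 counts in AAV8-Null. The lowest AAV8-IGFBP1 library was well above the highest AAV8-Null library, and the spread inside each group was small beside the gap. Irf7 averaged 8.07 ± 0.573 CPM in AAV8-IGFBP1 (SD, n = 3) and 2.28 ± 0.403 CPM in AAV8-Null (SD, n = 4). It rose 3.55-fold, or by 1.83 on the log2 scale (SE 0.14, 95% interval 1.51 to 2.15, edgeR adjusted p = 0.00388), which lay at the 99.8 percentile of all genes tested. The exact two-sided permutation test gave p = 0.0286, the smallest it can give. Without AAV8-IGFBP1 replicate 2 the log2 fold change was also 1.83, and with each library left out in turn it stayed between 1.76 and 1.95 and was called in 7 of 7 fits.

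Ifngr2, the signalling chain of the interferon gamma receptor, had 106, 96.5 and 101 CPM in AAV8-IGFBP1 libraries, against 62.7, 66.4, 63.4 and 67.0 CPM in AAV8-Null libraries. Both groups were tight, and they were separated by a wide gap. The means were 101.2 ± 5.04 CPM in AAV8-IGFBP1 (SD, n = 3) and 64.9 ± 2.17 CPM in AAV8-Null (SD, n = 4). Ifngr2 rose 1.56-fold, or by 0.64 on the log2 scale (SE 0.06, 95% interval 0.51 to 0.77, edgeR adjusted p = 0.00618; exact permutation p = 0.0286). It was called in 7 of 7 fits with a library left out, at log2 fold changes of 0.60 to 0.68. The plot of the 10 genes by library shows these 2 separations beside the overlap of the other genes.

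**Figure D1:**
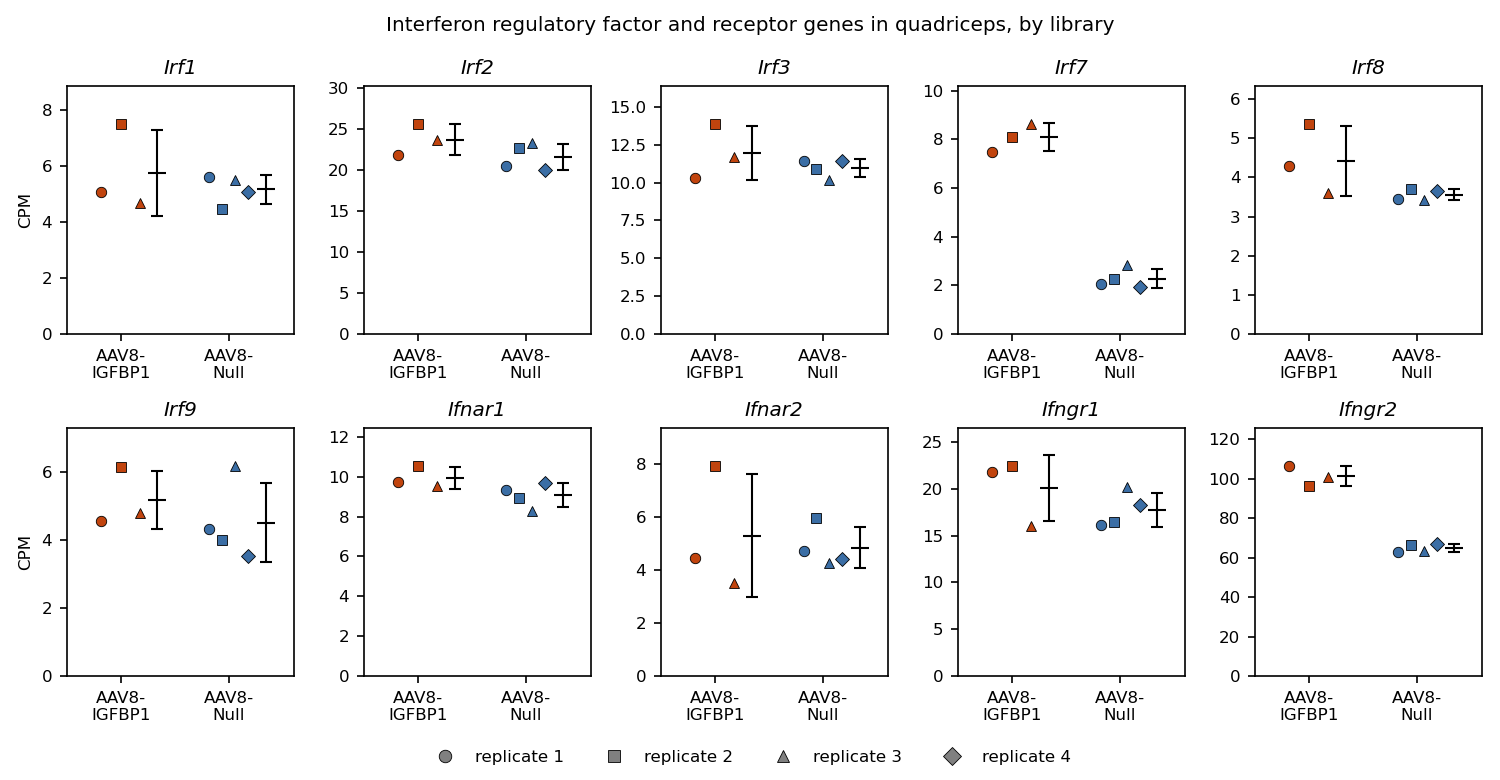
CPM (TMM-scaled, linear axes from 0, a scale for each gene) of the 10 genes in 3 AAV8-IGFBP1 and 4 AAV8-Null libraries; points are libraries with a shape for each replicate number, and bars mark the mean ± SD. The groups do not overlap for Irf7 (7.49 to 8.63 CPM in AAV8-IGFBP1, 1.95 to 2.85 CPM in AAV8-Null) and Ifngr2 (96.5 to 106 CPM in AAV8-IGFBP1, 62.7 to 67.0 CPM in AAV8-Null), and overlap for the other 8 genes.

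Promoters are shown for the 2 genes that rose and for Irf8 and Irf2, the genes of next lowest p, because the factors encoded here act through short DNA motifs. The sequences are from RefSeq on GRCm38.p6, from 250 bases before to 50 bases after each gene's start; the counts were made on another build, GRCm39. They were searched on both strands for the core of the interferon-stimulated response element, GAAANNGAAA, and for the gamma-activated site, TTCNNNGAA, whose letters read the same on both strands. The motifs can overlap. Matches are in capitals, and all sequences run 5′ to 3′ along the gene's strand. The regions are chr7:141266375-141266674 (minus strand) for Irf7, chr16:91546809-91547108 (plus strand) for Ifngr2, chr8:120736108-120736407 (plus strand) for Irf8 and chr8:46739495-46739794 (plus strand) for Irf2.
Irf7: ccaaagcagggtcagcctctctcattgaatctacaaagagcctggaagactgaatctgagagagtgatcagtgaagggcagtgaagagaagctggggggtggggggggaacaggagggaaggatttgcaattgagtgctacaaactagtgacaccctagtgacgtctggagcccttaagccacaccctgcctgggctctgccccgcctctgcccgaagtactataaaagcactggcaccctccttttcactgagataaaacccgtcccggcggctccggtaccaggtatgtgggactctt
Ifngr2: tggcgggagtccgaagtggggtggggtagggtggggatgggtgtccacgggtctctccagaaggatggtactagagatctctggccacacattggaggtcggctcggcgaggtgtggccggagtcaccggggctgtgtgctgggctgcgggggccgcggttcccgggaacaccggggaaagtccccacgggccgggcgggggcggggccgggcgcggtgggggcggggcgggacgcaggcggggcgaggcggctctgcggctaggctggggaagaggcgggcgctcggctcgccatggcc
Irf8: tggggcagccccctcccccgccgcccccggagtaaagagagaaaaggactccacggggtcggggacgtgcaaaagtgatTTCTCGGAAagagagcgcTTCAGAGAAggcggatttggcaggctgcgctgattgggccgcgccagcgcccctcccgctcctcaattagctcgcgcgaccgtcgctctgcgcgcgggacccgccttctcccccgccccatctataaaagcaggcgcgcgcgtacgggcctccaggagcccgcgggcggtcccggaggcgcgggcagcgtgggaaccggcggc
Irf2: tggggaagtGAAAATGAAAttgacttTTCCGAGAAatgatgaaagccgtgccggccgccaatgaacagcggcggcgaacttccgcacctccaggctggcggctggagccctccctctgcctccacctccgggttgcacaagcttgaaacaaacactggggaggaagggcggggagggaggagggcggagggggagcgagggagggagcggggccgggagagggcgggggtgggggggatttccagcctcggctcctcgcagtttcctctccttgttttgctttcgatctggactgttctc

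The windows of the 2 genes that rose, Irf7 and Ifngr2, hold neither set of letters. The window of Irf8 holds 2 gamma-activated sites, whose first bases lie at -171 and -153 from the start site, and that of Irf2 holds 1 response element core at -241 and 1 gamma-activated site at -224. All 10 genes had a promoter in the table, with 13 promoters in all. The response element core was in 1 of the 10 genes, Irf2, against 3.99% of all 27025 genes in the table. The gamma-activated site was in 5 of the 10, Irf1, Irf2, Irf8, Ifnar1 and Ifnar2, against 9.55% of all genes. A match is a description of letters, not a bound site.

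Among the receptor subunits other than Ifngr2, no difference passed the test. Ifngr1, the ligand-binding chain for interferon gamma, had 21.8, 22.5 and 16.05 CPM in AAV8-IGFBP1 and 16.2, 16.4, 20.2 and 18.2 CPM in AAV8-Null (log2 fold change 0.18, 95% interval -0.11 to 0.47, edgeR adjusted p = 0.615). AAV8-IGFBP1 replicate 3 lay below every AAV8-Null library and the other AAV8-IGFBP1 libraries above, so that the groups overlapped. Ifnar1, a signalling chain of the type I receptor, had 9.52 to 10.5 CPM in AAV8-IGFBP1 (median 9.75) and 8.30 to 9.68 CPM in AAV8-Null (log2 fold change 0.13, 95% interval -0.06 to 0.32, edgeR adjusted p = 0.574). Ifnar2, its high-affinity partner, had 4.45, 7.93 and 3.52 CPM in AAV8-IGFBP1, against 4.73, 5.97, 4.27 and 4.43 CPM in AAV8-Null. Its log2 fold change was 0.12 (SE 0.27, 95% interval -0.49 to 0.74, edgeR adjusted p = 0.897). The high value was that of AAV8-IGFBP1 replicate 2, without which the log2 fold change of Ifnar2 was -0.29. It was the most variable of the 10 genes in AAV8-IGFBP1, with a coefficient of variation of 43.9%, against 15.9% in AAV8-Null.

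Among the regulatory factors other than Irf7, no difference passed the test. Irf3, which is present before stimulation and acts with Irf7 on type I interferon genes, had 10.3, 13.9 and 11.7 CPM in AAV8-IGFBP1, against 11.4, 10.9, 10.2 and 11.4 CPM in AAV8-Null. The groups overlapped, and the log2 fold change was 0.12 (SE 0.10, 95% interval -0.12 to 0.35, edgeR adjusted p = 0.698). Irf9, the DNA-binding part of the type I interferon response factor, averaged 5.17 ± 0.852 CPM in AAV8-IGFBP1 (SD, n = 3) and 4.50 ± 1.16 CPM in AAV8-Null (SD, n = 4), and its log2 fold change was 0.20 (95% interval -0.24 to 0.64, edgeR adjusted p = 0.735). Its highest library of all was AAV8-Null replicate 3, at 6.18 CPM.

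Irf1, the activator among the targets of interferon gamma, had 5.08, 7.52 and 4.67 CPM in AAV8-IGFBP1, against 5.62, 4.46, 5.52 and 5.09 CPM in AAV8-Null. The log2 fold change was 0.15 (SE 0.17, 95% interval -0.23 to 0.54, edgeR adjusted p = 0.773), and -0.08 without AAV8-IGFBP1 replicate 2, the one high library. Irf2, its competitor, averaged 23.7 ± 1.90 CPM in AAV8-IGFBP1 (SD, n = 3) and 21.6 ± 1.603 CPM in AAV8-Null (SD, n = 4), with a log2 fold change of 0.14 (95% interval -0.05 to 0.32, edgeR adjusted p = 0.542). Irf8 had 4.30, 5.37 and 3.61 CPM in AAV8-IGFBP1, against 3.44, 3.71, 3.43 and 3.65 CPM in AAV8-Null. The AAV8-Null libraries of Irf8 were very close together, and AAV8-IGFBP1 replicate 3 lay among them. Its log2 fold change was 0.31 (SE 0.15, 95% interval -0.02 to 0.64, edgeR adjusted p = 0.418), and 0.15 without AAV8-IGFBP1 replicate 2.

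All 10 log2 fold changes were above 0, with a median of 0.17, while 49.9% of all genes tested were above 0, with a median of -0.000657. AAV8-IGFBP1 replicate 2 was the highest of the 7 libraries for 7 of the 10 genes, against 17.7% of all genes. Without it the median over the 10 genes was 0.08, and Irf1, Irf3 and Ifnar2 were below 0, Irf3 by the least at -0.000368. Irf7 was highest in AAV8-IGFBP1 replicate 3 and Ifngr2 in AAV8-IGFBP1 replicate 1.

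**Figure D2:**
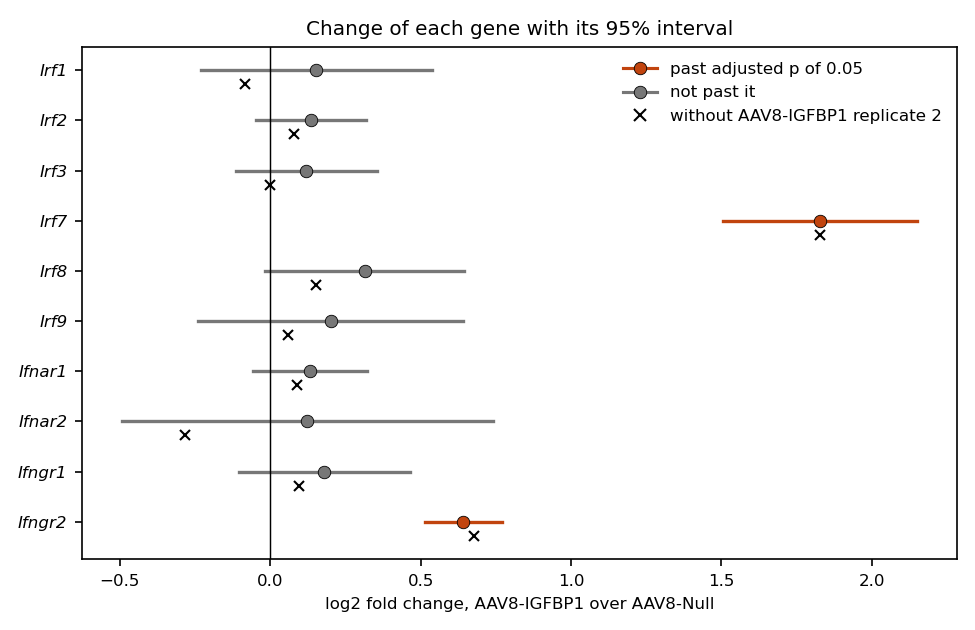
Log2 fold change, AAV8-IGFBP1 over AAV8-Null, of the 10 genes with 95% intervals (edgeR, all 7 libraries) and the value without AAV8-IGFBP1 replicate 2. Irf7 (1.83) and Ifngr2 (0.64) lie clear of 0, the intervals of the other 8 genes span 0, and Ifnar2 moves to -0.29 without that library.

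Ratios of paired genes within a library need no scaling between libraries. The ratio of Irf7 to Irf3 counts was 0.726, 0.584 and 0.740 in AAV8-IGFBP1 libraries, against 0.181, 0.206, 0.280 and 0.170 in AAV8-Null libraries, with no overlap. The ratio of Ifngr1 to Ifngr2, the 2 chains of the interferon gamma receptor, was 0.205, 0.233 and 0.159 in AAV8-IGFBP1, against 0.258, 0.247, 0.318 and 0.272 in AAV8-Null. The groups did not overlap there either, with the lower ratios in AAV8-IGFBP1. The chains of the type I receptor did not separate, since the ratio of Ifnar1 to Ifnar2 was 1.33 to 2.704 in AAV8-IGFBP1 and 1.495 to 2.19 in AAV8-Null. Nor did activator and competitor, since the ratio of Irf1 to Irf2 was 0.197 to 0.293 in AAV8-IGFBP1 and 0.197 to 0.275 in AAV8-Null. Such ratios show unequal change inside a pair and were not tested; those with Irf7 or Ifngr2 restate the differences above.

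**Figure D3:**
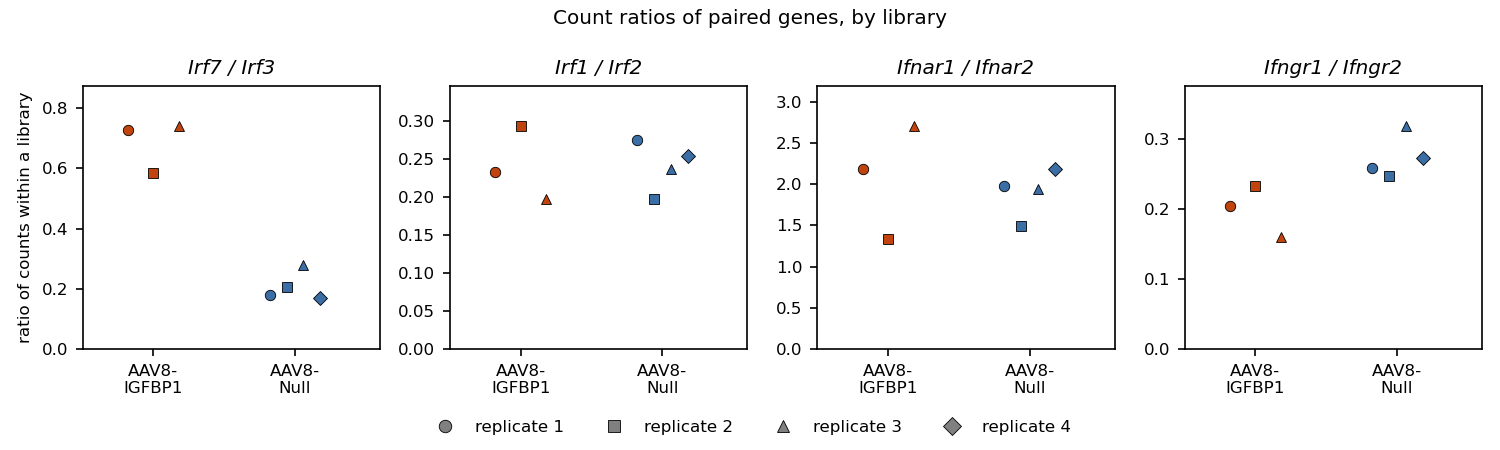
Ratio of counts of paired genes in each library (linear axes from 0), AAV8-IGFBP1 left of AAV8-Null; points are libraries with a shape for each replicate number. The groups do not overlap for Irf7 over Irf3 (0.584 to 0.740 in AAV8-IGFBP1, 0.170 to 0.280 in AAV8-Null) and Ifngr1 over Ifngr2 (0.159 to 0.233 in AAV8-IGFBP1, 0.247 to 0.318 in AAV8-Null), and overlap for the other 2 pairs.

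Levels of different genes were compared as CPM per kilobase of merged exons (GENCODE M21, on GRCm38). Merged exons include retained parts of rare transcripts, so these levels are approximate. Ifngr2 was the highest of the 10 genes in both groups, at 26.9 in AAV8-IGFBP1 and 17.2 in AAV8-Null, above Ifngr1 at 7.06 in AAV8-IGFBP1 and 6.24 in AAV8-Null. Irf3 (3.47 in AAV8-IGFBP1, 3.19 in AAV8-Null) and Irf2 (3.21 in AAV8-IGFBP1, 2.92 in AAV8-Null) followed, and their ranges over libraries overlapped in each group. Ifnar1, Ifnar2 and Irf1 were lower and close together, at 1.67, 1.59 and 1.45 in AAV8-IGFBP1 and 1.53, 1.46 and 1.30 in AAV8-Null. Irf9 (0.960 in AAV8-IGFBP1, 0.836 in AAV8-Null) and Irf8 (0.627 in AAV8-IGFBP1, 0.504 in AAV8-Null) stood at the low end. Irf7 held rank 5 of the 10 genes in AAV8-IGFBP1, at 2.14, and rank 9 in AAV8-Null, at 0.603. In AAV8-Null its range overlapped those of its neighbours Irf9 and Irf8. In AAV8-IGFBP1 its range of 1.98 to 2.29 was above that of Ifnar1 and inside that of Ifnar2.

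Some of these genes share exon positions with another gene in GENCODE M21, and no source used here gives the strand setting of the counting, so their reads could be split. Irf7 lies opposite Phrf1, which had 18.3, 19.2 and 19.4 CPM in AAV8-IGFBP1, against 19.0, 15.2, 23.3 and 19.7 CPM in AAV8-Null (log2 fold change -0.02, edgeR adjusted p = 0.964). Irf3 lies opposite Bcl2l12 (log2 fold change 0.15, edgeR adjusted p = 0.755), and Irf9 overlaps Rnf31 on the same strand (0.11, edgeR adjusted p = 0.697). Irf1 lies opposite Gm17334, which had 0, 3 and 4 counts in AAV8-IGFBP1 and 1, 5, 2 and 12 in AAV8-Null. Ifnar2 overlaps Gm21970 on the same strand, which had 0 counts in all 7 libraries. Neither partner passed the count filter. The 95% interval of the log2 fold change of Phrf1 was -0.30 to 0.26. The part of split reads in the values of Irf7, Irf3, Irf9, Irf1 and Ifnar2 was not tested.

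The genes whose pattern over the 7 libraries was most like that of Irf7 were found among 11237 genes by the root mean square difference of log2 CPM, each gene centred on its own mean. They were Socs2 (0.177), a target of growth hormone signalling, Dbp (0.265), a clock-controlled transcription factor, Prima1 (0.355), an anchor of acetylcholinesterase, Pappa (0.364), a protease of IGF-binding proteins, and Igfals (0.420), a partner of circulating IGF complexes. Socs2 had 28.7, 31.6 and 26.1 CPM in AAV8-IGFBP1, against 6.14, 9.51, 9.66 and 7.01 CPM in AAV8-Null (log2 fold change 1.83, edgeR adjusted p = 0.00639). Dbp rose by 1.90 on the log2 scale (edgeR adjusted p = 0.0126). Among the interferon pathway genes listed below, Ifit3 was the closest, at rank 15 (0.480), and Ifngr2 held rank 62 (0.614). Of the other 9 genes of the set, Ifngr2 was the closest to Irf7, and the rest lay at 0.796 to 0.964. This measure includes the difference between the groups, so genes with a log2 fold change near that of Irf7 tend to lie close by construction. These ranks partly restate the fold changes and are no separate evidence of a link to Irf7.

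Around the receptors and factors, lists of pathway genes were read from the same fit. Interferon ligands were at the detection floor. Of 21 ligand genes 20 had 0 counts in all 7 libraries, and Ifng had 2 counts in all over AAV8-IGFBP1 and 3 over AAV8-Null. The 6 kinases and STAT factors below the receptors held 0 calls by edgeR, DESeq2 or limma-voom, and 0 had an unadjusted p under 0.05. Their median log2 fold change was 0.07. Among all genes tested edgeR called 0.362% higher and 0.194% lower, and 12.6% had an unadjusted p under 0.05. The log2 difference was 0.26 for Stat2 (edgeR adjusted p = 0.535), 0.11 for Jak2 (edgeR adjusted p = 0.736), 0.04 for Tyk2 (edgeR adjusted p = 0.897) and -0.04 for Jak1 (edgeR adjusted p = 0.848).

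The 23 sensors, adaptors and kinases upstream of Irf3 and Irf7 held 0 calls by edgeR, DESeq2 or limma-voom, with 1 gene at an unadjusted p under 0.05 and a median log2 fold change of 0.06. That gene was Ifih1, a sensor of double-stranded RNA, at 6.38 ± 0.958 CPM in AAV8-IGFBP1 (SD, n = 3) and 4.47 ± 0.641 CPM in AAV8-Null (SD, n = 4; log2 fold change 0.51, edgeR adjusted p = 0.185). For Mavs, the adaptor below it, the log2 difference was -0.24 (edgeR adjusted p = 0.401). Of 5 other IRF genes and type III receptor subunits, 4 were tested and 0 called by edgeR, DESeq2 or limma-voom, with 1 at an unadjusted p under 0.05. It was Irf5, an activator of inflammatory genes, which had 3.39, 2.88 and 4.54 CPM in AAV8-IGFBP1, against 5.38, 6.05, 4.92 and 5.04 CPM in AAV8-Null. The groups did not overlap, with AAV8-IGFBP1 the lower, and the log2 fold change was -0.57 (SE 0.16, edgeR adjusted p = 0.185). That arrangement held for 6.01% of all genes tested, and 12.6% had an unadjusted p under 0.05. Since edgeR called 0.362% of all genes higher and 0.194% lower, 0 calls do not set these lists apart.

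Of 13 genes listed here as negative regulators of interferon signalling 1 fell and 0 rose, with 3 at an unadjusted p under 0.05. DESeq2 called 2 lower and 0 higher, and limma-voom called 0. Among all genes tested edgeR called 0.194% lower and 0.362% higher, and 12.6% had an unadjusted p under 0.05. The DESeq2 shares were 1.54% lower and 1.43% higher. Log2 fold changes were above 0 in 7 of the 13 and below 0 in 6, with a median of 0.01. Irf2bpl, listed only as a relative of the Irf2-binding corepressors, had 25.4, 27.2 and 30.4 CPM in AAV8-IGFBP1, against 43.1, 41.4, 42.2 and 34.1 CPM in AAV8-Null. It fell by 0.54 on the log2 scale (SE 0.10, edgeR adjusted p = 0.0475), and was called in 1 of 7 fits with a library left out, the fit without AAV8-Null replicate 4, at adjusted p = 0.0210. Irf2bp2, which binds Irf2, averaged 17.4 ± 3.12 CPM in AAV8-IGFBP1 (SD, n = 3) and 31.6 ± 8.05 CPM in AAV8-Null (SD, n = 4). Its log2 fold change was -0.86, with an adjusted p of 0.176 by edgeR and 0.000546 by DESeq2. The other gene at an unadjusted p under 0.05 lay the opposite way: Nlrc5, a regulator of MHC class I genes and of interferon signalling, had 1.91, 4.28 and 1.44 CPM in AAV8-IGFBP1, against 1.63, 0.792, 1.13 and 1.44 CPM in AAV8-Null (log2 fold change 1.02, edgeR adjusted p = 0.347). It was named after its values were seen, and without AAV8-IGFBP1 replicate 2 its log2 fold change was 0.43.

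Of 40 interferon-stimulated effector genes 36 were tested, 2 rose and 0 fell, with 19 at an unadjusted p under 0.05; DESeq2 called 11 higher and 0 lower, and limma-voom called 1. Over all genes tested edgeR called 0.362% higher and DESeq2 1.43%, and 12.6% had an unadjusted p under 0.05. All 36 log2 fold changes were above 0 with a median of 0.60. Without AAV8-IGFBP1 replicate 2, 34 were above 0 and the median was 0.43, with Mx1 at -0.69 and Ifi27 at -0.16. Ifit3, an antiviral protein of the IFIT family, averaged 5.50 ± 1.28 CPM in AAV8-IGFBP1 (SD, n = 3) and 2.60 ± 0.258 CPM in AAV8-Null (SD, n = 4), and rose by 1.07 on the log2 scale (SE 0.17, edgeR adjusted p = 0.0324). Bst2, the tetherin that holds budding virus at the cell surface, averaged 6.55 ± 1.05 CPM in AAV8-IGFBP1 (SD, n = 3) and 3.79 ± 0.169 CPM in AAV8-Null (SD, n = 4), and rose by 0.79 (SE 0.13, edgeR adjusted p = 0.0335). Each was called in 1 of 7 fits with a library left out, the fit without AAV8-IGFBP1 replicate 3, and 0 of the 36 were called without AAV8-IGFBP1 replicate 2. Without replicate 2 of AAV8-IGFBP1 the log2 fold changes were 0.87 for Ifit3 and 0.65 for Bst2. The log2 fold change of Irf7 was larger than that of Ifit3 or Bst2; the difference between these genes was not tested.

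**Figure D4:**
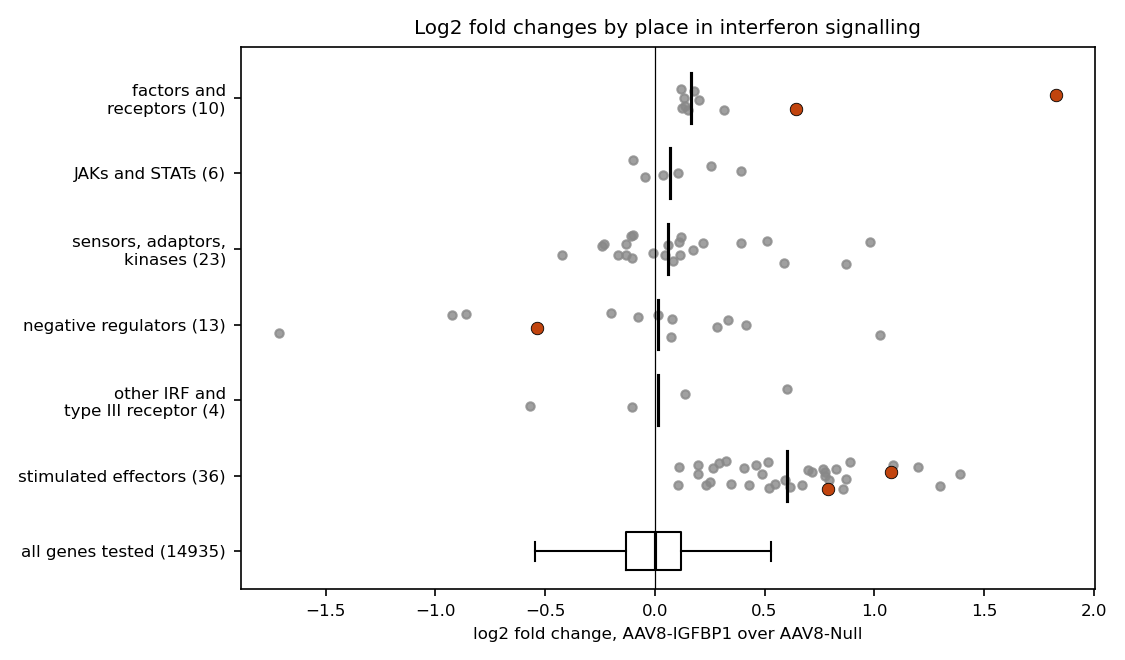
Log2 fold change, AAV8-IGFBP1 over AAV8-Null, of each tested gene (points, orange where the edgeR adjusted p is under 0.05) by pathway list, with a bar at each list's median; the box for all genes spans the quartiles, with whiskers at the 5 and 95 percentiles. The effector genes lie above 0 (36 of 36 with all libraries, 34 without AAV8-IGFBP1 replicate 2, median 0.60 with all), the kinases and STAT factors (median 0.07) and sensors (median 0.06) lie around 0, and Irf7 (1.83) lies far from the other factors.

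Markers of other cell types that a muscle sample can hold were summed per library. In bulk muscle fewer cells of a type and less RNA per cell cannot be told apart. The 8 general leukocyte markers summed to 22.3, 32.9 and 15.3 CPM in AAV8-IGFBP1, against 14.4, 21.0, 20.03 and 14.9 CPM in AAV8-Null (exact two-sided permutation p = 0.286). The 9 neutrophil markers summed to 4.82, 32.0 and 3.01 CPM in AAV8-IGFBP1, against 0.894, 2.24, 3.30 and 0.827 CPM in AAV8-Null (exact permutation p = 0.0857). The high library in both was AAV8-IGFBP1 replicate 2. The 14 macrophage and monocyte markers summed to 64.3 to 118 CPM in AAV8-IGFBP1 and 76.8 to 121 CPM in AAV8-Null (exact permutation p = 0.857). The 9 dendritic cell markers summed to 6.21 to 8.73 CPM in AAV8-IGFBP1 and 6.67 to 10.7 CPM in AAV8-Null, and the 14 lymphocyte and natural killer markers to 1.24 to 3.29 CPM in AAV8-IGFBP1 and 0.916 to 1.29 CPM in AAV8-Null (exact permutation p = 0.0857 for the last). No marker on these lists was at 0 in all 7 libraries. Only 1 of the 14 lymphocyte and natural killer markers passed the count filter. Their high sum of 3.29 CPM was that of AAV8-IGFBP1 replicate 2, against 1.28 and 1.24 CPM in the other AAV8-IGFBP1 libraries.

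Sums rest on the most abundant genes, so single markers were read as well. Of the 14 macrophage and monocyte markers, Ccr2, a chemokine receptor of monocytes, had 3.39, 4.04 and 2.19 CPM in AAV8-IGFBP1, against 1.53, 1.72, 1.91 and 1.90 CPM in AAV8-Null. The groups did not overlap, and the log2 fold change of 0.86 had an adjusted p of 0.131 by edgeR and 0.0219 by DESeq2. The log2 fold change of Ccr2 was 0.66 without AAV8-IGFBP1 replicate 2. Csf1r, the macrophage growth factor receptor, lay the other way without overlap (log2 fold change -0.36, edgeR adjusted p = 0.423). Among 4 tested dendritic markers Itgax (1.69, edgeR adjusted p = 0.249), and among 4 tested neutrophil markers S100a8 (3.06, edgeR adjusted p = 0.342), were higher in every AAV8-IGFBP1 library. The log2 fold change was below 0 for 3 of the 4 dendritic markers, and the median of the 4 was -0.41. All 4 neutrophil markers were above 0. Without AAV8-IGFBP1 replicate 2 the log2 fold change of Itgax was 0.92. The other tested markers of these 3 lists, and all 8 general leukocyte markers, overlapped between the groups. These single markers were named after their values were seen. Every AAV8-IGFBP1 library lay above every AAV8-Null library in 6.33% of all genes tested, and below in 6.01%. Of the 14 macrophage and monocyte markers 1 lay above and 1 below.

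Adipocyte markers were high in the same library, at 690, 1951 and 554 CPM in AAV8-IGFBP1, against 692, 635, 422 and 573 CPM in AAV8-Null. Endothelial markers summed to 222 to 234 CPM in AAV8-IGFBP1 and 224 to 270 CPM in AAV8-Null. AAV8-IGFBP1 replicate 3, where Irf7 was highest, had leukocyte and neutrophil sums within the AAV8-Null range. AAV8-IGFBP1 replicate 1, where Ifngr2 was highest, lay above every AAV8-Null library in both sums, at 22.3 and 4.82 CPM against AAV8-Null maxima of 21.0 and 3.30 CPM. Without AAV8-IGFBP1 replicate 2 the log2 fold changes were 1.83 for Irf7 and 0.68 for Ifngr2. The part of these cells in the values of the 10 genes was not tested, and the highest library for Irf1, Irf2, Irf3, Irf8, Ifnar1, Ifnar2 and Ifngr1 was AAV8-IGFBP1 replicate 2.

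**Figure D5:**
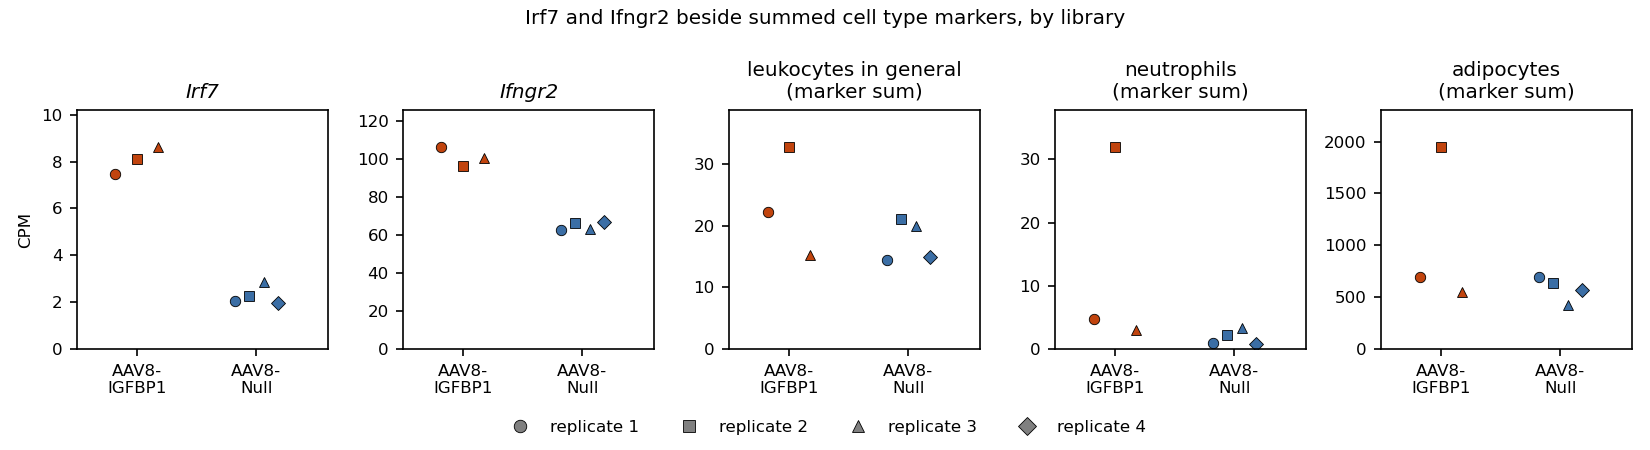
Irf7 and Ifngr2 (CPM) beside the summed CPM of markers of leukocytes, neutrophils and adipocytes in each library, on linear axes from 0 with AAV8-IGFBP1 left of AAV8-Null; points are libraries with a shape for each replicate number. AAV8-IGFBP1 replicate 2 is the highest library for the leukocyte (32.9), neutrophil (32.0) and adipocyte (1951) sums but not for Irf7 or Ifngr2.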

How the data were processed

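RNA-seq of quadriceps from 7 libraries (3 AAV8-IGFBP1, 4 AAV8-Null, grouped by their labels) was used. Estimated counts by gene symbol, with a column per library, were deposited by the authors. The submitters' processing notes name, with no roles or order, the build GRCm39 and the tools STAR 2.7.9a, Salmon 1.10.1, cutadapt 3.4, R 4.2.2 and Trim Galore 0.6.7; the annotation release and strand setting are not given in the sources used here. Counts were rounded to whole numbers. Genes were filtered (filterByExpr, minimum count 10, minimum total 15), scaled by TMM and tested with edgeR 4.0.16 (R 4.3.3; estimateDisp, robust glmQLFit, glmQLFTest on group) with Benjamini-Hochberg adjustment over 14935 genes, threshold 0.05. Standard errors are approximate, from the F statistic of each gene. CPM used TMM-scaled totals, and log2 CPM used a prior count of 2. Exact permutation tests used log2 CPM of genes or marker sums. DESeq2 1.42.0 and limma 3.58.1 (voom) were alternatives, as were other scalings, filters, a replicate block and leaving out each library. The floor of 3 counts covers counting error only, because without molecular identifiers a read is not a molecule. No pair of libraries within a group agreed within sampling noise, the chi-square being 22.2 to 60.0 per degree of freedom.

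Named were all 10 genes, Igfbp1, detected ligands, Stat2, Tyk2, Jak1 and Jak2, each pathway list's called genes and its 2 of lowest p, and the 5 genes most like Irf7; some genes that this rule names are not reported here. The genes and lists were chosen with earlier results of these data known. The scripts were tested on simulated counts. Promoters came from a RefSeq table on GRCm38.p6 and exon lengths from GENCODE M21.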

Additional observations from a re-analysis of the deposited data

Results flagged for a closer look

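Irf2bpl was flagged because 1 AAV8-Null library stood apart from the other 3. AAV8-Null replicate 4 had 34.1 CPM, and the others 41.4 to 43.1 CPM. The gap to its nearest neighbour was 0.831 of the whole range on the log2 CPM scale, just past the 95% critical value of Dixon's test for 4 samples. Chance flags about 1 in 20 such groups, and 23 genes were screened. Without that library the edgeR adjusted p of Irf2bpl was 0.0210, against 0.0475 with all 7 libraries.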

How the results depend on the processing

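Irf7 passed the threshold under all 17 alternatives and Ifngr2 under 16 of 17, DESeq2, limma-voom, other scalings and filters and 7 left-out libraries among them. The exception was the replicate block, which left 1 of the 2 genes (Irf7 adjusted p 0.0403, Ifngr2 0.0640). The labels give both groups the same replicate numbers but do not say that these pair the libraries. Same-numbered libraries deviated with correlations of -0.0984, 0.0682 and -0.0574 across genes. No AAV8-IGFBP1 library correlated best with the AAV8-Null library of its own number, though AAV8-Null replicate 2 correlated best with AAV8-IGFBP1 replicate 2. Correlations over all genes cannot decide whether a pairing touches some genes. Among all genes the count changed was 83 (54 higher, 29 lower). It was 437 with DESeq2 (211 higher, 226 lower), 306 with no count filter (155 higher, 151 lower) and 19 with the replicate block (14 higher, 5 lower). limma-voom called 18 lower. With 1 library left out it was 19 to 86 (16 to 46 higher, 3 to 40 lower), with 28 and 23 on leaving out AAV8-IGFBP1 replicates 1 and 2, and 19 and 52 on leaving out AAV8-Null replicates 1 and 3. The share of calls that were higher was thus 54 of 83, against 48.3% with DESeq2 and 50.7% with no filter. That share was 71.0% with limma-voom, 65.4% with limma-voom and quality weights, and 73.7% with the replicate block. With 1 library left out it was 53.5 to 84.2%. The pathway lists held 3 changed genes, 13 with DESeq2, 9 with no filter, 1 with limma-voom, 1 with the block and 0 to 5 with 1 library left out. Log2 fold changes that turned their sign were all uncalled. Irf1 ranged from -0.0840 to 0.28 with 1 library left out, Irf3 from -0.000368 to 0.22, Ifnar2 from -0.29 to 0.35 (-0.0113 with quality weights), Tyk2 from -0.0158 to 0.0818 and Jak1 from -0.0783 to 0.0062. For Irf1, Irf3 and Ifnar2 the library was AAV8-IGFBP1 replicate 2. The cause of these moves was not tested. The 3 against 4 libraries allow no exact p under 0.0286, and the ligands lie under the depth at which a difference could be seen.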

Other observations

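Socs1 and Socs3, inhibitors of cytokine receptors on the list of negative regulators, had wide ranges in the AAV8-Null group and were picked out after their values were seen. Socs1 had 0.912, 0.629 and 0.730 CPM in AAV8-IGFBP1, against 1.93, 6.98, 0.602 and 0.316 CPM in AAV8-Null (edgeR adjusted p = 0.597). Socs3 had 3.23, 3.10 and 2.74 CPM in AAV8-IGFBP1, against 4.57, 13.97 (AAV8-Null replicate 2), 3.09 and 1.14 CPM in AAV8-Null (edgeR adjusted p = 0.718). The high library of both was AAV8-Null replicate 2, where Irf7 had 2.24 CPM and Ifngr2 66.4 CPM.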
